A study of Mus musculus with 12 samples.

Results

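To examine what had already changed in the cerebral vasculature 15 min after systemic LPS, the 3 libraries of vessels taken 15 min after the injection were compared with the 3 libraries of vessels from PBS mice. These were chosen by their treatment labels and are 6 of the 12 libraries of the series, which also holds vessels at 30 min and 4 h. All 19150 genes that passed the filter on low counts were tested. Every mouse was wild type, C57BL6, and 2 to 3 months old, and each library pooled the vessels of 1 male and 1 female. LPS (lipopolysaccharide of E. coli) was injected intraperitoneally at 10 mg/kg, and the controls received PBS in its place. Vessels were separated from the forebrain, with the meninges removed, on a dextran gradient and a mesh, after perfusion with ice-cold PBS. The fraction thus holds endothelial cells, mural cells, and whatever stays attached to the vessel wall or is carried along with it. The time of day, and the interval between the PBS injection and the killing of the controls, are not given in the sources used here, so time of day and treatment cannot be told apart.

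LPS is sensed by a receptor complex of TLR4, MD-2 (Ly96), and CD14. Its adaptors activate the NF-kB transcription factors and the MAP kinases within minutes. The first genes to respond are the immediate early genes, which are transcribed by factors already present in the cell and so need no new protein. Many of them encode transcription factors, others encode inhibitors of the same pathways, and in endothelium chemokines and adhesion molecules for leukocytes follow.

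Depth was 22.5 to 25.6 M assigned fragments in the PBS libraries and 20.7 to 25.9 M in the LPS 15 min libraries. Levels are given as CPM, fragment counts scaled to library size after TMM normalization, and each is the level of 1 library unless called a mean. Endothelial markers were abundant in all 6 libraries: the 12 endothelial markers summed to 12184 to 12484 CPM in PBS and 12481 to 12579 CPM at 15 min. These like sums hide opposite moves. In 9 of the 12 every LPS 15 min library was below every PBS library, beside 24.1% of all tested genes, and in 3 every one was above. Slc2a1, 1 of the 3, went from a mean of 2735 CPM to 4455 CPM. The 10 pericyte markers summed to 4069 to 4142 CPM and 4241 to 4264 CPM. Microglial markers were at 159 to 164 CPM and 147 to 149 CPM in sum. The libraries were not vessel wall alone: 7 markers of choroid plexus epithelium summed to 10565 to 11006 CPM in PBS and 9409 to 9912 CPM at 15 min. In all 7 every LPS 15 min library was below every PBS library. These are bulk libraries, so fewer cells of a type and less RNA per cell cannot be told apart in any result below.

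A gene was called when edgeR's quasi-likelihood test rejected a change of at most 1.5-fold, at a threshold of 0.05 on p-values adjusted by Benjamini-Hochberg across the whole table. At 15 min 800 genes were called, 4.18% of those tested. Of these 633 were higher (3.31%) and 167 lower (0.872%). The 3 LPS and 3 PBS libraries did not overlap in 797 of the 800. Over all genes, such separation without regard to size was common: it was met by 4831 genes that were higher (25.2%) and 4609 that were lower (24.1%). A call therefore rests here on the size of a change as much as on its direction. Protein-coding genes made up 575 of the higher and 138 of the lower genes.

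**Figure D1:**
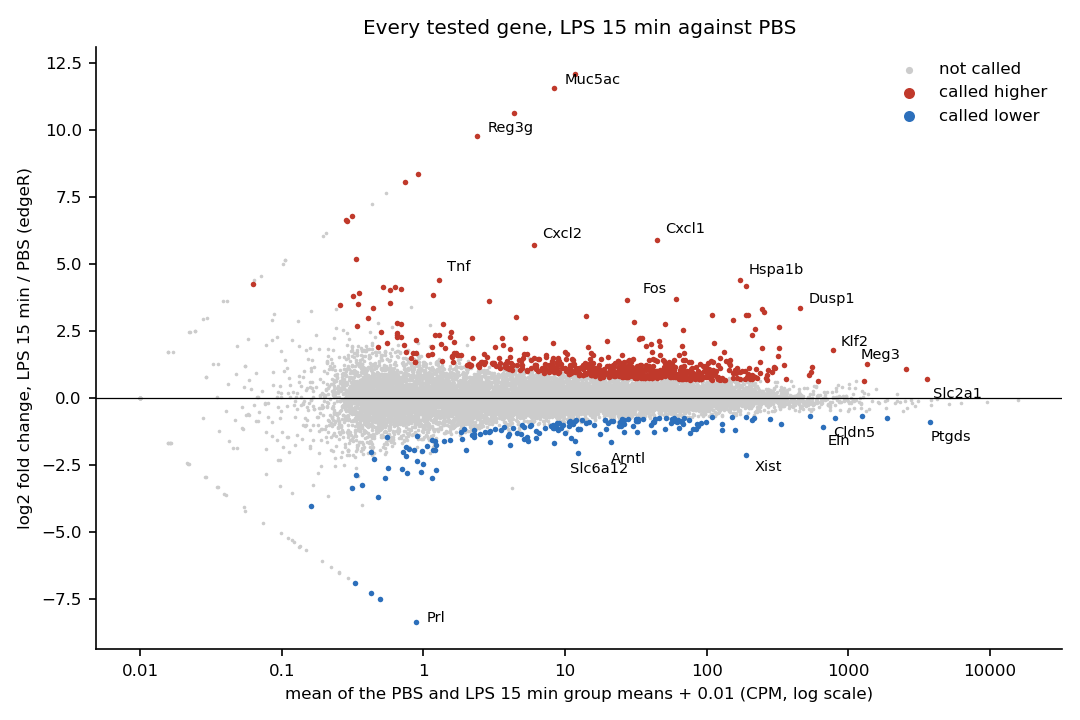
Log2 fold change of LPS 15 min over PBS (vertical axis) against the mean level of both groups in CPM on a log scale (horizontal axis) for every tested gene. Red points are the 633 genes called higher, blue points the 167 called lower, and grey points were not called. Cxcl1, Cxcl2, Hspa1b, and Fos lie far above the bulk of the genes, which centres on 0.

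Most rises were modest. The median log2 fold change of the higher genes was 1.10, and 239 of them rose by less than 1. A change of more than 2 was reached by 36 genes up to 3 and by another 38 above 3. These steeper genes were compact. Those above 3 were a mix of early response genes, such as Fos and Dusp1, and genes with no fragment in PBS, such as Muc5ac, Gp2, and Reg3g. The spans of these kinds were not set apart. Of the genes between 2 and 3, 50% spanned under 5 kb, and 44.7% of those above 3 did, beside 19.7% of all tested genes. The median span was 4.68 kb with 4 exons for the genes between 2 and 3, 30.6 kb with 12 exons for the rises under 1, and 19.0 kb with 7 exons over all tested genes. The 167 lower genes had a median log2 fold change of -1.13 and a median span of 13.8 kb.

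The transcription factors of the immediate early class were examined first. Of the 14 AP-1 and ATF factors 8 rose and none fell, with a median log2 fold change of 0.782 over the list, beside -0.00211 over all tested genes. Fos, which pairs with Jun proteins to form AP-1, was at 8.58, 8.87, and 8.32 CPM in the PBS libraries and at 110.3, 109, and 118 CPM at 15 min. The groups were far apart, with a log2 fold change of 3.71 ± 0.05 (SE, n = 3 and 3) and an edgeR Benjamini-Hochberg adjusted p of 5.32e-23. Each SE of a log2 fold change is back-calculated from the F statistic of the fit. It can be too small for large changes from few counts. Atf3, a stress-induced factor of the same class, went from 3.97, 4.32, and 3.74 CPM to 51.0, 49.5, and 52.2 CPM, a log2 fold change of 3.66 ± 0.05. Junb rose from 47.9 to 50.6 CPM in PBS to 446 to 472 CPM, and Jun from 86.3 to 94.1 CPM to 551 to 564 CPM. Fosb, from 2.60 to 3.56 CPM, reached 24.8 to 25.4 CPM. Fosl2 and Jund, which were already at 40.6 to 46.6 and 188 to 197 CPM in PBS, had smaller log2 fold changes of 0.79 ± 0.04 and 0.77 ± 0.03.

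The EGR, NR4A, and IER genes responded as broadly: 9 of 14 rose and none fell, with a list median of 1.55. Nr4a1, an orphan nuclear receptor, went from 40.3, 39.8, and 37.1 CPM to 334, 334, and 343 CPM, a log2 fold change of 3.11 ± 0.03 with an edgeR adjusted p of 7.24e-25. Egr1, a zinc finger factor induced by MAP kinase signaling, went from 35.0, 35.6, and 38.5 CPM to 265, 270.0, and 279 CPM. Its log2 fold change was 2.90 ± 0.03. All 3 LPS libraries thus stood several-fold above every PBS library for both genes. Ier2 (2.35 ± 0.03), Egr3 (2.26 ± 0.05), Egr2 (2.23 ± 0.19), and Ier3 (2.07 ± 0.04) rose by more than 2 on the log2 scale.

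Krüppel-like factors, regulators of endothelial quiescence among other roles, were also among the rises. Of 12 tested 5 rose and none fell, and 11 of the 12 had LPS libraries that were all above the PBS libraries, beside 25.2% of all genes. Klf2, which endothelium induces under laminar flow, went from 339, 356, and 347 CPM to 1182, 1219, and 1207 CPM, a log2 fold change of 1.79 ± 0.02. Klf4, its close relative, went from 155 to 169.8 CPM to 470.0 to 484 CPM (1.57 ± 0.03). Klf6 (0.97 ± 0.03) and Klf10 (0.88 ± 0.05) rose less. Klf3 was the weakest call at 0.69 ± 0.03. It was lost in 8 of 16 alternative fits, among them those without PBS library 1 or PBS library 3, each with a value of 0.67. With a transcript length offset, or with limma on TPM, 3 of the KLF genes were called. Of the 14 early genes for growth arrest and survival 5 rose, led by Csrnp1 at 1.93 ± 0.04 and Plk3, a polo-like kinase, at 1.63 ± 0.06. Myc was not among the called genes of that list.

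**Figure D2:**
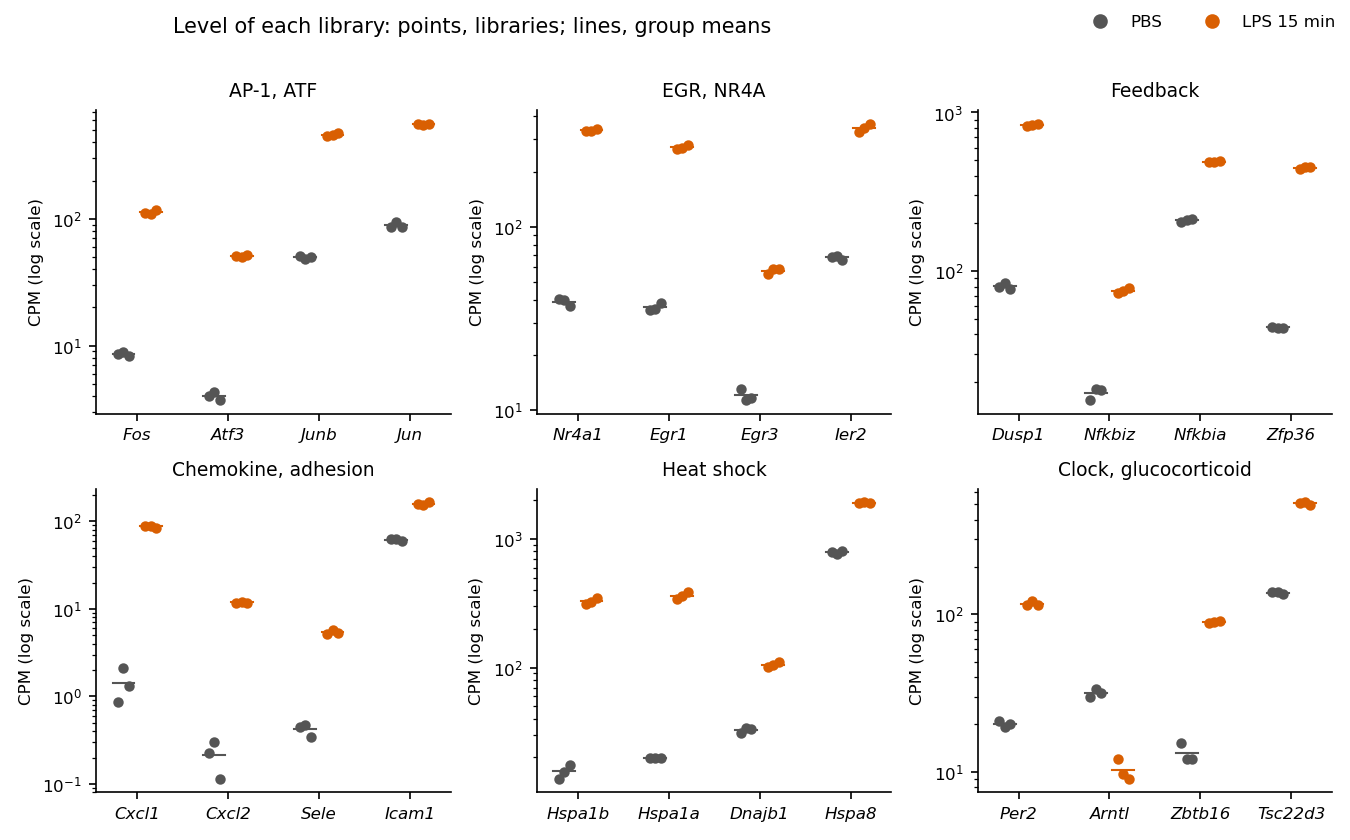
Level of 24 genes in each PBS (grey) and LPS 15 min (orange) library, in CPM on log axes, in 6 panels by role; points are libraries and short lines group means. In every gene shown the 3 libraries of one group lie apart from the 3 of the other, and Arntl is the 1 gene shown whose LPS libraries are the lower ones.

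Genes that brake the response rose together with those that carry it. Of 16 MAP kinase feedback genes 6 rose and none fell. Dusp1, a phosphatase that switches off p38 and JNK, went from 79.7, 84.7, and 77.0 CPM to 827, 837, and 852 CPM. Its log2 fold change was 3.38 ± 0.03, with an edgeR adjusted p of 1.71e-25. Dusp5 (1.84 ± 0.12), Dusp2 (1.69 ± 0.19), Dusp8 (1.37 ± 0.05), and Dusp6 (1.18 ± 0.05), further phosphatases of the family, were also called. Among 11 regulators of mRNA decay 2 rose. Zfp36, which encodes tristetraprolin and speeds the decay of mRNAs such as Tnf, went from 44.8, 44.1, and 44.0 CPM to 439.9, 455, and 455 CPM (3.34 ± 0.03). Btg2, a deadenylation cofactor, went from 59.9 to 64.7 CPM to 376 to 380.1 CPM (2.59 ± 0.03).

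Genes of the NF-kB system were examined next. Of 14 NF-kB inhibitors and feedback genes 4 rose. Nfkbia, which encodes the inhibitor IkBa, went from 203, 211, and 214 CPM to 488, 486, and 498 CPM, a log2 fold change of 1.23 ± 0.02. Nfkbiz, a nuclear IkB protein, went from 15.5, 18.0, and 17.9 CPM to 72.7, 75.3, and 78.5 CPM (2.14 ± 0.05). Nfkbid (1.64 ± 0.12) and Tnfaip3 (1.44 ± 0.05), which encodes the deubiquitinase A20, completed the calls. None of the 8 NF-kB subunits and kinases and none of the 17 genes of the TLR4 complex and its adaptors was called by edgeR, which for lists of this size is near the share of 4.18% over all genes. Rela had a mean of 88.3 ± 1.35 CPM (SD, n = 3) in PBS and 106 ± 1.55 CPM at 15 min, and Tlr4 had 5.83 ± 0.580 CPM and 6.15 ± 1.2 CPM. The mean of Cd14 was 4.24 ± 0.201 CPM and 6.54 ± 1.37 CPM, with a log2 fold change of 0.63 ± 0.11 that did not pass.

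The sequences before the start sites of 14 called genes were searched for motifs, and 7 of the windows are shown because they hold a match. Those of Nr4a1, Atf3, Junb, Tnf, Sele, and Per1 held none of the motifs in capitals and are not shown, nor is that of Hspa1a, a near copy of that of Hspa1b. Each is the stretch of 250 bases before the gene's RefSeq start on GRCm38.p6, read 5′ to 3′ on the gene's strand. Capitals mark matches on either strand to the NF-kB consensus, to the cyclic AMP response element (CRE, TGACGTCA), to the CArG box of serum response factor, and to a heat shock element (3 alternating GAA and TTC units).
Fos (chr12:85473640-85473889, plus strand): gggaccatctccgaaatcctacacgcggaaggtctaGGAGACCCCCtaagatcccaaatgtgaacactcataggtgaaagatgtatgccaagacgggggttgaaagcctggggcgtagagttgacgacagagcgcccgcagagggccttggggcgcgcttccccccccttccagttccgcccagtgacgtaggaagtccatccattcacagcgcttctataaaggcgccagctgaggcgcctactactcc
Dusp1 (chr17:26508473-26508722, minus strand): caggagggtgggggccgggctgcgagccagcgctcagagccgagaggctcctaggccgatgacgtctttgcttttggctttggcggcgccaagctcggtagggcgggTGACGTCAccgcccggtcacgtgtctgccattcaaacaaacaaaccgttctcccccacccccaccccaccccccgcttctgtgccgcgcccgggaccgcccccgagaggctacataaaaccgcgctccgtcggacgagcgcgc
Zfp36 (chr7:28379229-28379478, minus strand): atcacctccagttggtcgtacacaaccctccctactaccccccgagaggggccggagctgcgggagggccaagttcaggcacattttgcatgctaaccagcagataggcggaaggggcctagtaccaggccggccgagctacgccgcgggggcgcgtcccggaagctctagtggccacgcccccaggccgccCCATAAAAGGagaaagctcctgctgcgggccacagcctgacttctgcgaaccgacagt
Nfkbia (chr12:55492648-55492897, minus strand): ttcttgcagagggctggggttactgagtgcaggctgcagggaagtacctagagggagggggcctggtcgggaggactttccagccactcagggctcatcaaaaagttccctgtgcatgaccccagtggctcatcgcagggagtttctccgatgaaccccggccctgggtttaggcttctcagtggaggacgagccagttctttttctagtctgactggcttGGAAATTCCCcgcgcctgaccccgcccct
Cxcl1 (chr5:90890995-90891244, plus strand): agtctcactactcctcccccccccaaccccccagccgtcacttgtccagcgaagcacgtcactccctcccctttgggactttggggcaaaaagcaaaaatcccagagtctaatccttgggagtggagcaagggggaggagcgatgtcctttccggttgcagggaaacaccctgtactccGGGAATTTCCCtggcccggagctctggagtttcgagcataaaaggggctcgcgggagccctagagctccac
Cxcl2 (chr5:90903649-90903898, plus strand): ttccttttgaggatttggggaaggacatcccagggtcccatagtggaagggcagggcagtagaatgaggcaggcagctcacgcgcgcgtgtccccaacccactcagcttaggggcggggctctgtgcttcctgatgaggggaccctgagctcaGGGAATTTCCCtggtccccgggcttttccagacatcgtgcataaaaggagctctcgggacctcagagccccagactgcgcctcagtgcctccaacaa
Hspa1b (chr17:34959239-34959488, minus strand): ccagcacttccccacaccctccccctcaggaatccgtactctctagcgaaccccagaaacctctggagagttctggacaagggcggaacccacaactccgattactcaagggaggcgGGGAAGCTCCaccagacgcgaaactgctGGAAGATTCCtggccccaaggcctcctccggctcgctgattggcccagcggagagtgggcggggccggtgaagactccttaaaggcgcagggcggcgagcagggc
The window of Fos held 1 NF-kB match 214 to 205 bases before the start, and a TATA box (TATAAA, not in capitals) 33 to 28 bases before it. That of Dusp1 held a CRE at 143 to 136 bases, and that of Zfp36 a CArG box at 58 to 49 bases. Nfkbia had an NF-kB match at 29 to 20 bases. In Cxcl1 and Cxcl2, 2 overlapping NF-kB matches ran from 71 to 61 and from 97 to 87 bases before the start. Hspa1b had 2 NF-kB matches, at 133 to 124 and 105 to 96 bases. A heat shock element of this form was in none of the 7 windows. Among all 32851 windows of this length in the table, 9.55% held an NF-kB match, 1.55% a CRE, 1.47% a CArG box, 0.466% a heat shock element, and 12.4% a TATA box. The matches describe letters, not bound sites.

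Chemokines for neutrophils gave the steepest rises among the inflammatory genes. Of 11 CXC chemokines 3 rose and 1 fell. Cxcl1 (chromosome 5, 90891241 to 90893115) was at 0.862, 2.13, and 1.30 CPM in PBS and at 89.8, 89.5, and 84.7 CPM at 15 min. Its fold change was 60.3, a log2 value of 5.92 ± 0.09 with an edgeR adjusted p of 5.23e-23. Its neighbour Cxcl2 (90903871 to 90905938) went from 0.225, 0.304, and 0.115 CPM to 11.7, 12.1, and 11.8 CPM (5.73 ± 0.13). No PBS library came near any LPS library for either gene. Cxcl10, a chemokine for T cells, was at 1.61 to 2.37 CPM and 4.10 to 5.01 CPM (1.19 ± 0.10). Ppbp, a chemokine that platelets store, fell from 7.48 to 8.50 CPM to 2.60 to 2.85 CPM (-1.59 ± 0.15). Of the 6 platelet markers it was the 1 called, and their sum was 38.0 to 40.9 CPM in PBS and 24.0 to 28.5 CPM at 15 min.

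CC chemokines and cytokines were at low levels. Ccl12, a monocyte chemokine, went from 0.304 to 0.787 CPM to 1.92 to 2.25 CPM (2.03 ± 0.22). Ccl2, of the same kind, was at 0.337 to 0.573 CPM and 0.977 to 1.53 CPM. Its log2 fold change of 1.36 ± 0.26 had an edgeR adjusted p of 0.0211. The call was lost in 7 of 16 alternative fits, among them those without PBS library 2 (1.14) or LPS library 1 (1.17) and with DESeq2 (1.36). Of 11 cytokines 2 rose. Tnf went from 0.0375, 0, and 0.305 CPM to 2.51, 2.00, and 2.83 CPM (4.43 ± 0.39), and Il1b from 0.15, 0.607, and 0.649 CPM to 2.78, 2.46, and 2.60 CPM (2.46 ± 0.23). Il6 had no fragment in any of the 6 libraries, which allows up to 0.0364 CPM in PBS and 0.0377 CPM at 15 min for 3 counts over a group.

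Adhesion molecules for leukocytes moved in both directions. Sele, the E-selectin of activated endothelium, went from 0.450, 0.472, and 0.344 CPM to 5.12, 5.78, and 5.25 CPM, a log2 fold change of 3.64 ± 0.14. Icam1, the ligand of leukocyte integrins, went from 62.6, 63.0, and 60.1 CPM to 157, 156, and 165 CPM (1.36 ± 0.03). Selp, P-selectin, was at 0.487, 0.574, and 0.954 CPM in PBS and at 0.237, 0, and 0.226 CPM at 15 min. That fall of 1.99 ± 0.43 on the log2 scale was lost in 6 of 16 alternative fits, among them those without PBS library 3 (-1.67) or LPS library 2 (-1.50). Vcam1 was not called, with means of 334 ± 8.61 and 410.4 ± 8.55 CPM (SD, n = 3). No member of 15 SOCS and STAT genes or of 14 interferon response genes was called by edgeR, which for lists of this size is near the share of 4.18% over all genes. In 6 of the 14 interferon genes every LPS library was above every PBS library, and in 1 every one was below. Of the SOCS and STAT genes 5 were above and 5 below in this way. Socs3, a feedback inhibitor of cytokine receptors, was close at 0.77 ± 0.07 (adjusted p = 0.0636) and was called without PBS library 2 (0.83) or LPS library 1 (0.86).

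Vascular signals moved in both directions. Of 24 angiogenic factors and matrix signals 5 rose and 3 fell. In 8 of the 24 every LPS library was above every PBS library, beside 25.2% of all genes. In 12 every one was below, beside 24.1%. Ccn1, a matrix protein of the CCN family, went from 21.4, 24.2, and 22.3 CPM to 195, 195, and 193 CPM (3.10 ± 0.04). Apold1, an early gene of endothelium, went from 39.7, 43.6, and 40.5 CPM to 350.5, 346, and 358 CPM (3.09 ± 0.03). Both groups were tight and did not overlap. Adamts1, a protease (1.87 ± 0.02), and Rhob, a small GTPase (1.17 ± 0.02), also rose. Kdr, the VEGF receptor 2, fell from 345 to 358 CPM to 198 to 207 CPM (-0.79 ± 0.03), and Angpt4 from 1.15 to 1.95 CPM to 0.189 to 0.340 CPM (-2.76 ± 0.43). Plaur, the urokinase receptor, was the 1 call among 11 coagulation and fibrinolysis genes, which for a list of this size is near the share of 4.18% over all genes. It rose from 6.68 to 8.28 CPM to 30.8 to 33.0 CPM (2.15 ± 0.06). Among 17 vasoactive genes 1 was called higher and 1 lower, beside 3.31% and 0.872% of all genes. In 10 of the 17 every LPS library was below every PBS library, and in 2 every one was above. Ptgs2, the inducible cyclooxygenase, rose from 32.4 to 33.5 CPM to 80.1 to 80.5 CPM (1.28 ± 0.03). Aplnr, the apelin receptor, fell from 16.8 to 18.0 CPM to 5.52 to 6.17 CPM (-1.58 ± 0.14).

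Of 18 genes of tight and adherens junctions 11 had every LPS library below every PBS library, beside 24.1% of all genes, and 1 was called. This was Cldn5, the main claudin of brain endothelium. It fell from 2332, 2442, and 2310.2 CPM to 1417, 1416, and 1426 CPM (-0.73 ± 0.02, edgeR adjusted p = 2.09e-06). Ocln had means of 232 ± 3.16 and 233 ± 2.38 CPM and Tjp1 of 500.2 ± 10.4 and 467 ± 3.24 CPM. Of 20 barrier transporters 3 rose and 1 fell. Slc2a1, the glucose transporter GLUT1, went from 2730.1, 2788, and 2686 CPM to 4503, 4459, and 4402 CPM (0.70 ± 0.02). Mfsd2a, the carrier of omega-3 lysophospholipids, went from 103 to 108 CPM to 199.6 to 206 CPM (0.93 ± 0.03). Slc6a6, the taurine transporter, fell from 1532 to 1556 CPM to 958 to 977 CPM (-0.67 ± 0.02). Abcb1a, the efflux pump, was not called at 1031 ± 6.76 and 959 ± 4.46 CPM (means ± SD, n = 3).

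**Figure D3:**
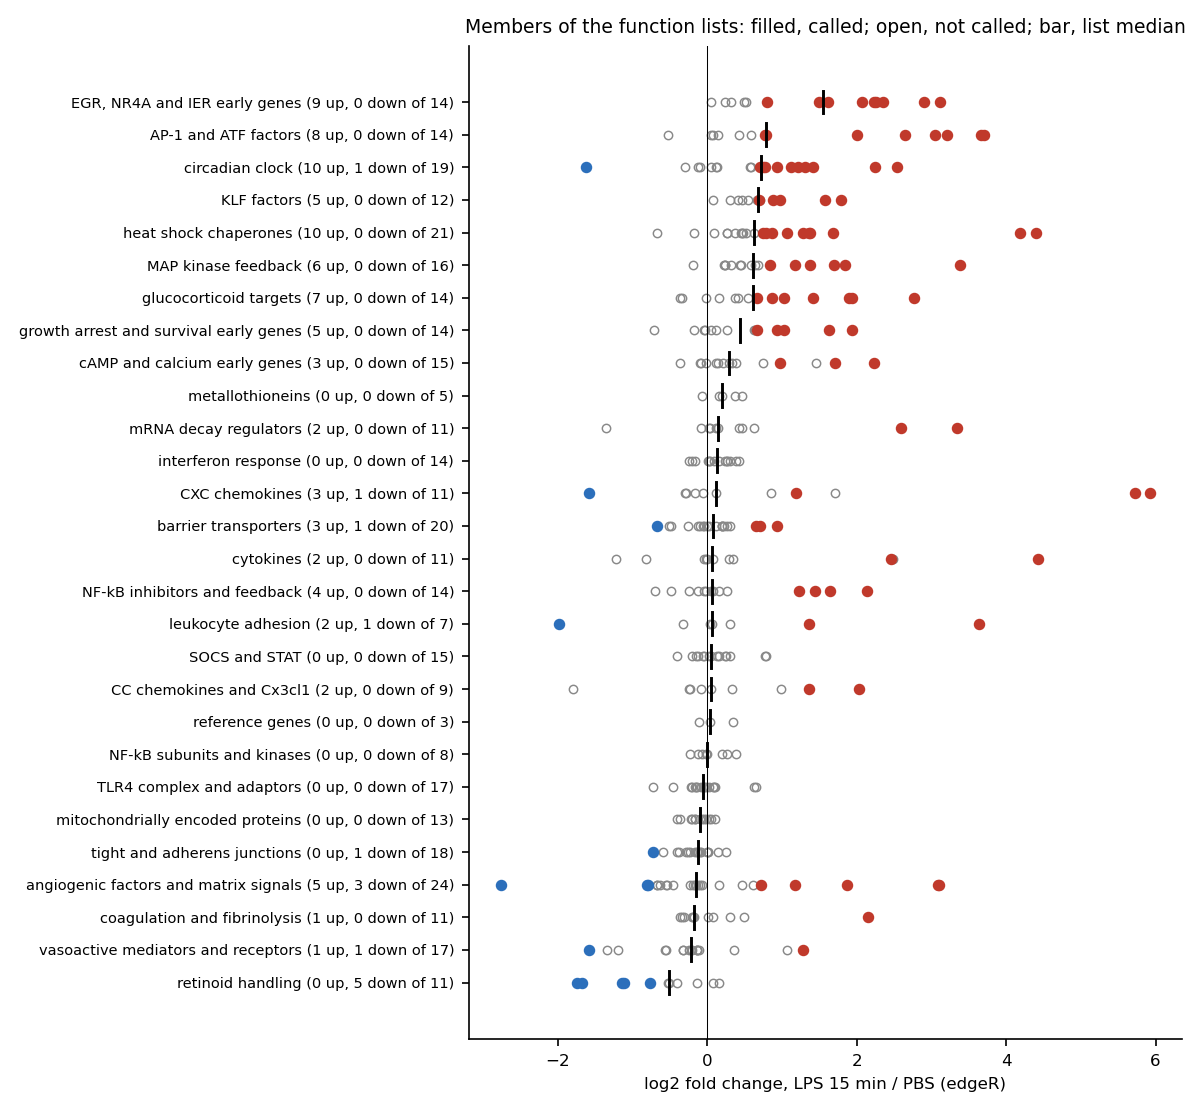
Log2 fold change of LPS 15 min over PBS (horizontal axis) for each member of 28 function lists (rows, ordered by median); red and blue points are genes called higher and lower, open points were not called, and black bars are list medians. The transcription factor, clock, and chaperone lists lie at the top, and retinoid handling, with 5 of 11 genes called lower, at the bottom.

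Heat shock chaperones included a pair of steep rises. Of 21 heat shock chaperones 10 rose and none fell. In 19 every LPS library was above every PBS library, beside 25.2% of all genes, and in 2 every one was below. Hspa1b, an inducible HSP70 (chromosome 17, 34956436 to 34959238), went from 13.7, 15.5, and 17.5 CPM to 315, 322, and 348 CPM. Its log2 fold change was 4.40 ± 0.05, with an edgeR adjusted p of 1.93e-24. Hspa1a (chromosome 17, 34969190 to 34972156), a near-identical copy, went from 19.9, 19.7, and 19.9 CPM to 343, 359, and 385 CPM (4.19 ± 0.05). Reads of the pair may be divided between them by the estimate, and 247 of the 250 bases before their starts are identical (98.8%). Dnajb1 (1.68 ± 0.05), Hsph1 (1.38 ± 0.04), and Dnaja1 (1.36 ± 0.03), cochaperones and a relative of HSP70, rose with them. Hspa8, the constitutive HSC70, went from 794, 771, and 800.1 CPM to 1922, 1926, and 1902 CPM (1.28 ± 0.02). None of 5 metallothionein genes and regulators was called by edgeR, near the share of 4.18% over all genes for so short a list. In 4 of the 5 every LPS library was above every PBS library.

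Genes known to respond to glucocorticoids rose as well: 7 of 14 were called higher and none lower. Zbtb16, a transcriptional repressor, went from 15.1, 12, and 12.1 CPM to 87.7, 89.2, and 90.1 CPM (2.77 ± 0.06). Fkbp5, a cochaperone of the glucocorticoid receptor, went from 17.9 to 21.6 CPM to 73.9 to 75.5 CPM (1.94 ± 0.05). Tsc22d3, which encodes GILZ, went from 138, 139, and 135 CPM to 512, 515, and 498 CPM (1.89 ± 0.03). Ddit4 (0.87 ± 0.04) and Cdkn1a (1.02 ± 0.03) were among the calls.

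Circadian genes shifted in both arms of the clock. Of 19 tested 10 rose and 1 fell. Per2 went from 21.1, 19.3, and 20.0 CPM to 115, 121, and 115 CPM (2.54 ± 0.06), and Per1, which is also on the glucocorticoid list, from 77.8 to 80.4 CPM to 209 to 217 CPM (1.42 ± 0.03). Both encode repressors of the clock. Ciart, a further repressor, rose by 2.24 ± 0.08 and Dbp, an output factor, by 1.12 ± 0.03 on the log2 scale. Arntl, which encodes the activator BMAL1, was the 1 fall, from 29.9, 33.6, and 31.6 CPM to 12, 9.69, and 9.02 CPM (-1.63 ± 0.10). As the time of day is not given for either group, clock phase and treatment cannot be told apart in these values.

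Some of the falls were in smooth muscle, fibroblast, and arachnoid markers, while 128 of the 167 lower genes were in no list. All 8 smooth muscle markers had LPS libraries below every PBS library, beside 24.1% of all genes, and 3 were called. Their sum was 3597 to 3633 CPM in PBS and 2454 to 2504 CPM at 15 min. Acta2, smooth muscle actin, went from 1010.1, 1014, and 1029 CPM to 601, 608, and 601 CPM (-0.75 ± 0.02). Myh11, smooth muscle myosin, was at 647 to 671 CPM and 408 to 429 CPM (-0.67 ± 0.03). It lost the call in 3 of 16 alternative fits, among them that without LPS library 1 (-0.65). Eln, which encodes elastin, went from 874, 917, and 899 CPM to 438, 431, and 428 CPM (-1.05 ± 0.02). Heyl, a Notch target of mural cells (-1.24 ± 0.07), and Synpo2, an actin-binding protein (-1.29 ± 0.05), fell further and were chosen after their values were seen. Perivascular fibroblast markers summed to 621 to 654 CPM in PBS and 417 to 432 CPM at 15 min, with 3 of 8 called lower. Col1a1, a fibrillar collagen chain, went from 86.7 to 96.1 CPM to 45 to 48.7 CPM (-0.94 ± 0.05), and Slc6a13, a GABA transporter of these cells, from 114 to 119 CPM to 55.9 to 59.1 CPM (-1.03 ± 0.04). With limma on log2(TPM + 1) the smooth muscle and the fibroblast lists had 1 call each. None of the 10 pericyte markers was called by edgeR, near the share of 4.18% over all genes for a list of this size. In 4 every LPS library was above every PBS library, and in 4 every one was below.

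Falls were also seen in 1 astrocyte marker and in retinoid and other genes. Ptgds, prostaglandin D synthase, went from 4929, 4879, and 4971 CPM to 2711, 2679, and 2615 CPM (-0.88 ± 0.02, edgeR adjusted p = 6.59e-12). Slc6a12, the betaine transporter, went from 19.7, 19.9, and 19.9 CPM to 4.85, 3.99, and 5.70 CPM (-2.03 ± 0.11). Gfap, the astrocyte filament, went from 170.3, 176, and 192 CPM to 81.9, 78.2, and 73.7 CPM (-1.2 ± 0.04) and was the 1 call among 8 astrocyte markers. Of 11 retinoid handling genes 5 fell and none rose. Rbp4, the carrier of retinol, went from 5.88 to 6.56 CPM to 1.74 to 2.00 CPM (-1.74 ± 0.19). Cyp26b1, which breaks down retinoic acid, went from 11.4 to 14.9 CPM to 3.65 to 4.19 CPM (-1.68 ± 0.13). Aldh1a2, which makes retinoic acid and also marks arachnoid cells, was at 52.3 to 57.9 CPM and 31.2 to 32.3 CPM (-0.77 ± 0.05). It lost the call in 2 of 16 alternative fits, among them that without PBS library 3 (-0.73). The 6 arachnoid markers summed to 102 to 111 CPM in PBS and 67.4 to 69.4 CPM at 15 min. The part of residual leptomeningeal tissue in these falls was not tested.

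A wide set of neuron-expressed genes was higher at 15 min. The families below were gathered after values had been seen, and so describe the libraries only. Of 25 glutamate receptor genes 12 rose and none fell (median 0.737), of 12 sodium channels 5, of 79 potassium channels 16, and of 8 long noncoding RNAs of neurons 7. Of 22 calcium channels 8 rose, of 9 neurexins, neuroligins, and shanks 3, and of 17 synaptotagmins 5, with 1 synaptotagmin lower. Meg3, an imprinted noncoding RNA held in the nucleus, went from 1644, 1642, and 1648 CPM to 3476, 3501, and 3475 CPM (1.08 ± 0.02). Miat, another nuclear RNA, went from 182 to 196 CPM to 406 to 413 CPM (1.12 ± 0.03). Slc17a7, the vesicular glutamate transporter of excitatory neurons, went from 72.7, 70.9, and 70.7 CPM to 166, 173, and 167 CPM (1.24 ± 0.04). Gria2, an AMPA receptor subunit, was at 65.9 to 67.4 CPM and 127 to 133 CPM (0.96 ± 0.04). The genes of these 7 families together numbered 172, of which 56 were called higher (32.6%) and 1 lower. These counts depended on the tool. With limma on log2(TPM + 1) the calls were 3 for glutamate receptors, 0 for sodium channels, and 3 for potassium channels, and with DESeq2 there were 10 for potassium channels. Calcium channels had 3 calls with DESeq2, 4 without PBS library 2, and 5 without PBS library 3, LPS library 1, or LPS library 2, and synaptotagmins 2 with DESeq2.

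Not all neuronal RNA moved this way. None of 10 abundant neuronal mRNAs, a list also gathered after values were seen, was called by edgeR. For a list of this size that is near the share of 4.18% over all genes. In 4 of the 10 every LPS library was above every PBS library, and in 4 every one was below. The 10 summed to 1060.0 to 1104 CPM in PBS and 1105 to 1139 CPM at 15 min. Snap25, a synaptic fusion protein, had means of 129.9 ± 1.68 and 149 ± 4.18 CPM (SD, n = 3), Nrgn 108 ± 8.03 and 92.1 ± 2.82 CPM, and Stmn2 85.5 ± 2.00 and 65.6 ± 3.80 CPM. Of the 9 neuron markers 2 were called, Slc17a7 and Syt1. Syt1 lost its call in 11 of 16 alternative fits. Among them were those without PBS library 2 or 3 (0.68 each) and without LPS library 1, 2, or 3 (0.71, 0.71, and 0.69). In 7 of these 9 neuron markers every LPS library was above every PBS library, beside 25.2% of all genes, and in 2 every one was below. The 9 summed to 528 to 557 CPM in PBS and 679 to 702 CPM at 15 min. Of 15 cyclic AMP and calcium early genes 3 rose, Arc, Sik1, and Npas4, and 12 were not called. Arc went from 11.9, 12.2, and 11 CPM to 54.0, 57.2, and 53.7 CPM (2.23 ± 0.07), and Npas4 from 12.8 to 14.8 CPM to 26.3 to 27.4 CPM (0.97 ± 0.09), while Sik1, a kinase, rose by 1.71 ± 0.03.

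The share of intron-containing RNA moved in the same libraries. Over 8725 tested genes with a transcript that the annotation calls a retained intron, such transcripts held 8.49%, 8.53%, and 8.47% of the fragments in the PBS libraries. At 15 min they held 9.81%, 9.84%, and 9.84%, and at 30 min 8.22%, 8.24%, and 8.17%. Among the 8357 of these genes that were not called the share was 8.43% to 8.47% and 9.57% to 9.61%, so the shift was not confined to the called genes. In 13 called genes of the early transcription factor, growth arrest, feedback, and decay lists it was 5.35%, 4.99%, and 4.43% in PBS and 10.4%, 10.2%, and 10.5% at 15 min. Fosb went from 2.28%, 5.74%, and 2.87% to 13%, 12.3%, and 15.8%, and Tnfaip3 from 10.6%, 4.13%, and 4.61% to 17.8%, 19.7%, and 20.0%. Single genes differed in direction: Dusp1 was at 20.1%, 20.5%, and 17.2% in PBS and 18.4%, 18.4%, and 18.3% at 15 min, and Egr3 at 96.0%, 80.1%, and 75.5% and then 68.0%, 68.3%, and 62.7%. With 3 libraries against 3 the smallest p that an exact two-sided permutation test allows is 0.10, so no test of these shares was made. The part of nuclear or unspliced RNA in the neuronal rises was not tested.

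**Figure D4:**
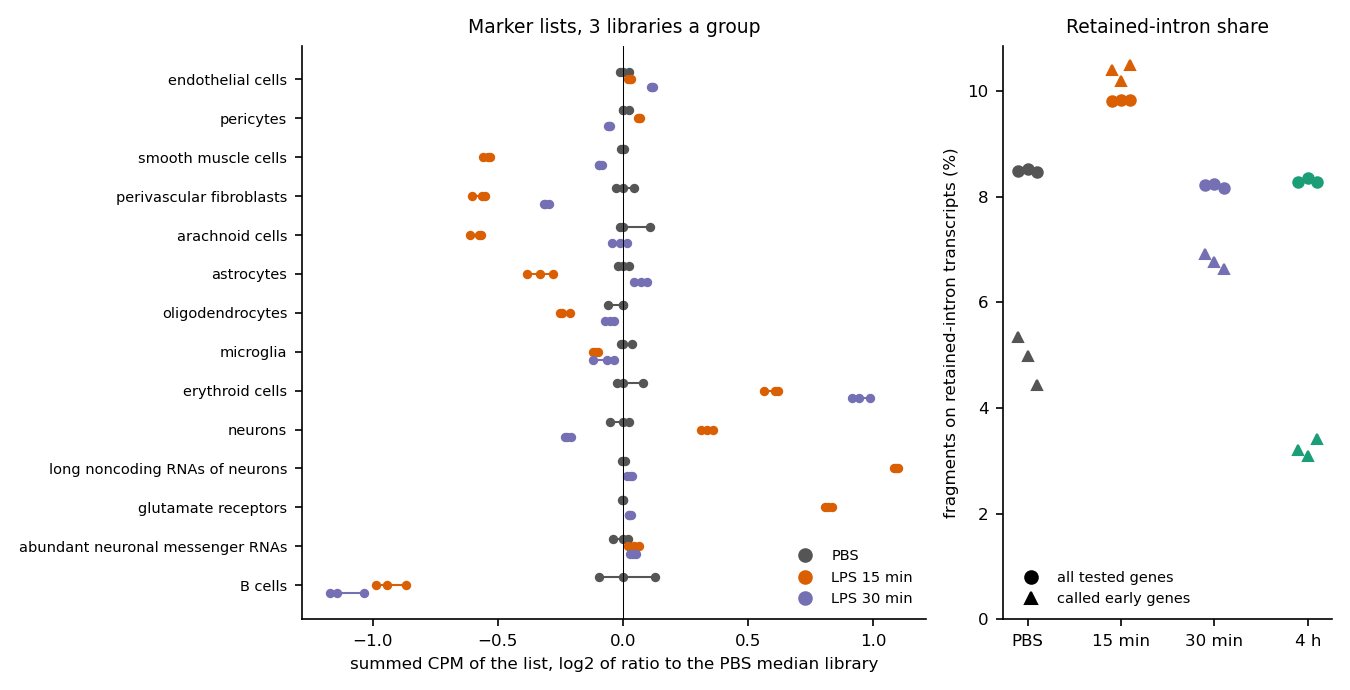
Left, summed CPM of 14 gene lists (rows) as log2 of the ratio to the median PBS library, with the lowest, median, and highest library of PBS (grey), LPS 15 min (orange), and LPS 30 min (purple); right, percent of fragments on retained-intron transcripts in each library of the 4 groups, for all tested genes (circles) and for called early genes (triangles). At 15 min the smooth muscle, fibroblast, arachnoid, and B cell sums lie below PBS, those of neuronal noncoding RNAs and glutamate receptors above it, and the retained-intron share of all tested genes is at 9.81% to 9.84%.

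Genes of epithelial, pituitary, and blood cells were also among the calls. Muc5ac, a gel-forming mucin (chromosome 7, 141788972 to 141819231), had no fragment in any PBS library and 14.4, 18.6, and 17.2 CPM at 15 min, at least 456-fold higher when PBS is set to a floor of 3 counts over the group. Gp2, a glycoprotein of zymogen granules and M cells, had 0 in PBS and 8.07, 8.79, and 9.32 CPM (at least 239-fold), and Reg3g, an antimicrobial lectin of mucosa, 0 and 3.83, 4.67, and 5.77 CPM (at least 130.1-fold). All 3 had 0 in each 30 min library. Of 15 mucosal genes, a list gathered after these values were seen, 13 were called higher (8 with limma on log2(TPM + 1)), and their sum was 0.916 to 1.35 CPM in PBS and 37.2 to 44.0 CPM at 15 min. Of 6 pituitary hormone genes, a list also gathered after values were seen, 3 were called lower and 1 had LPS libraries all above PBS, and the list summed to 14.7 to 15.4 CPM in PBS and 12.8 to 14.8 CPM at 15 min. Prl, prolactin, was at 1.27, 1.69, and 2.33 CPM in PBS and 0 in all LPS 15 min libraries (at least 46.6-fold lower), and Gh, growth hormone, at 0.712, 1.35, and 0.840 CPM and 0 (at least 26.0-fold lower). B cell genes, again a list gathered after values were seen, summed to 23.6 to 27.5 CPM and 12.7 to 13.8 CPM. Of these 6 of 10 were called lower, or 3 without PBS library 2 or without LPS library 1. On the lymphocyte marker list 1 of 5 was called lower. Red blood cell genes summed to 2317 to 2492 CPM and 3477 to 3618 CPM, and Hbb-bt, a beta globin, rose by 0.70 ± 0.04. Its call was lost in 5 of 16 alternative fits, among them those without PBS library 1 (0.67) and with DESeq2 (0.68). The part of tissue carried along at dissection in these values was not tested. Gm20388, the largest fitted rise, is a long gene model that overlaps other genes (chromosome 8, 119910841 to 124345722). It had 0 in PBS and 35.6, 17.4, and 17.8 CPM, and DESeq2 did not call it.

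Sex-linked RNA also differed. Xist, which is expressed from the inactive X chromosome of females, was at 296, 254, and 371 CPM in PBS and 108, 74.0, and 31.5 CPM at 15 min (-2.10 ± 0.23, edgeR adjusted p = 9.26e-06). The libraries of both groups were spread widely and did not overlap, and limma on log2(TPM + 1) did not call the gene (-1.95). None of the Y-linked genes was called, and Eif2s3y was at 33.6 to 45.9 CPM and 64.4 to 66.7 CPM (0.75 ± 0.08, adjusted p = 0.0953). Each pool holds 1 male and 1 female, so the share of RNA from either sex in a pool and the treatment cannot be told apart for sex-biased genes.

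To place the 15 min values in time, the same fit compared LPS 30 min with LPS 15 min. This contrast shares the LPS 15 min libraries with the comparison above. At 30 min 516 genes were higher than at 15 min (2.69%) and 375 lower (1.96%), or 384 higher and 647 lower with scaling by library size only. Many of the steepest genes at 15 min were higher still at 30 min. Fos was higher by a further 1.92 on the log2 scale at 30 min, Atf3 by 3.04, Cxcl1 by 3.67, Cxcl2 by 4.11, Sele by 5.19, and Hspa1b by 2.21. Sele thus went from 5.12 to 5.78 CPM at 15 min to 193 to 198 CPM at 30 min. Dusp1 (0.27 ± 0.03), Klf2 (-0.15 ± 0.02), Per2 (0.07 ± 0.05), and Tsc22d3 (0.09 ± 0.03) had log2 differences between the times that did not pass the test.

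The modest rises were nearer to PBS at 30 min. The 239 genes that had risen by less than 1 on the log2 scale had a median log2 fold change against PBS of 0.87 at 15 min and 0.23 at 30 min. For the 320 genes between 1 and 2 the medians were 1.21 and 0.42. For the 38 genes above 3 the medians were 4.06 and 4.8. Those 38 mix early response genes with mucosal genes such as Muc5ac, which had no fragment at 30 min. These medians are set side by side and share the PBS libraries, and the 15 min values are those that chose the genes. Meg3 was lower at 30 min than at 15 min by 1.05 on the log2 scale, at 1667 to 1693 CPM, and Slc17a7, at 85.0 to 87.4 CPM, by 0.97. Among 25 glutamate receptor genes 11 were lower at 30 min than at 15 min, and none was higher. Ptgds (5855 to 5929 CPM at 30 min) and Eln (676 to 698 CPM) were higher at 30 min than at 15 min by 1.14 and 0.67.

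**Figure D5:**
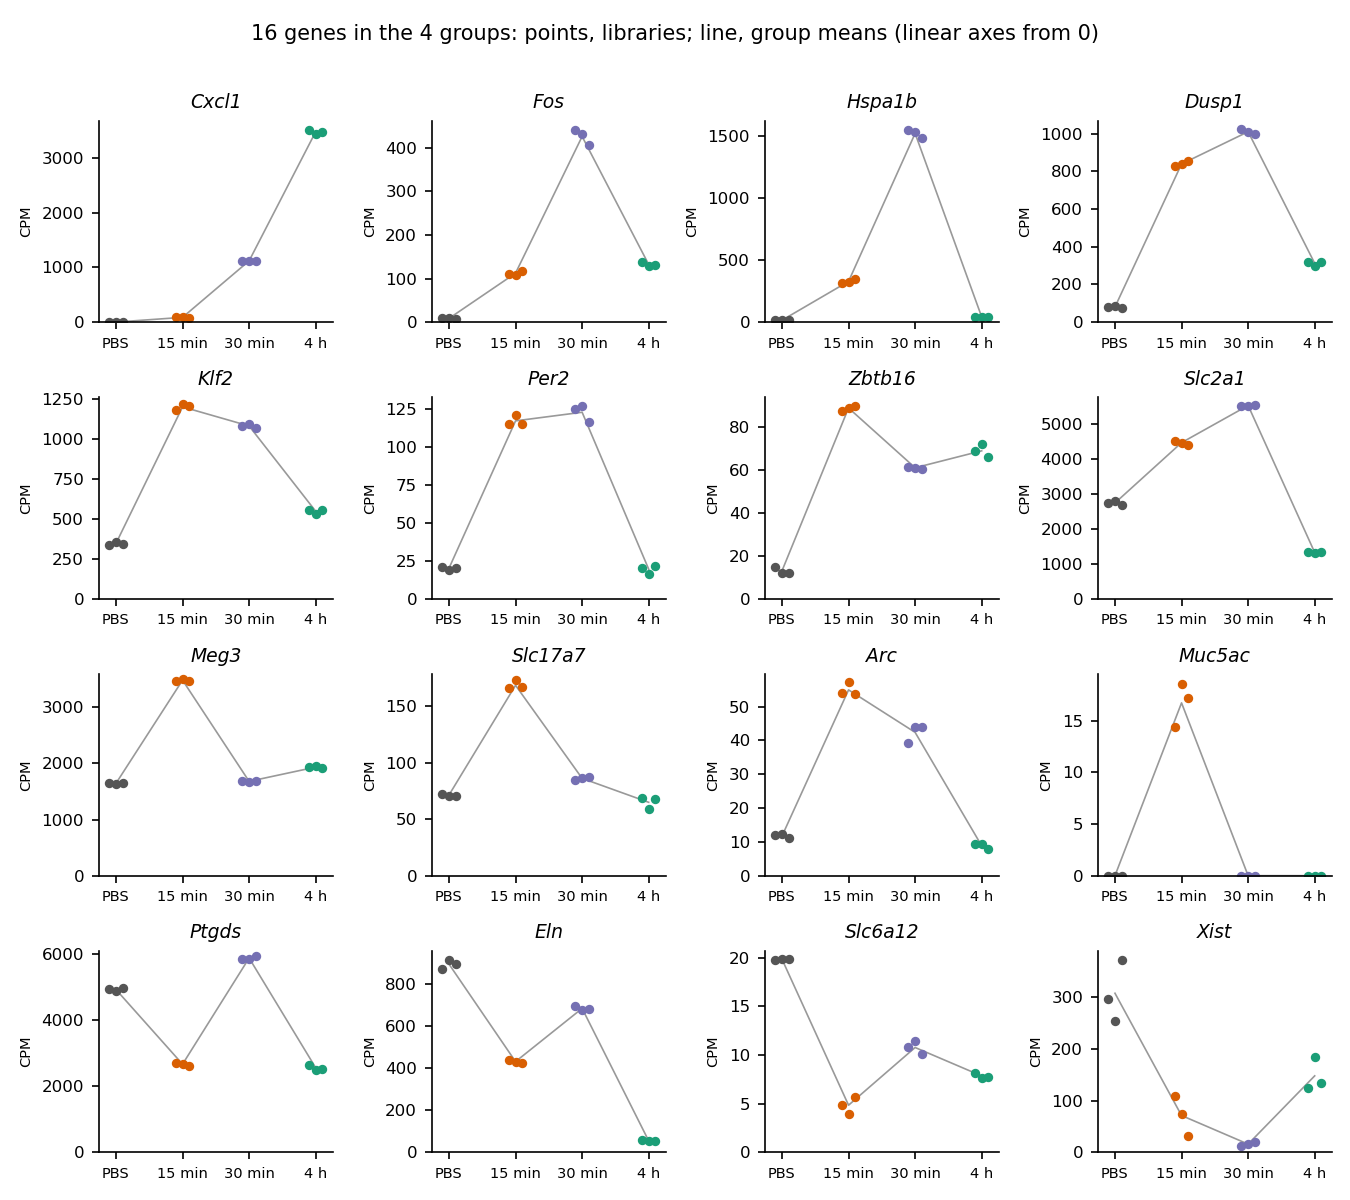
Level of 16 genes in CPM (linear axes from 0) in 4 groups of 3 libraries, from PBS on the left to LPS 4 h on the right; points are libraries and the grey line joins group means. Cxcl1, Fos, and Hspa1b climb further at 30 min, Klf2 and Per2 are at a like level at both times, and Meg3, Slc17a7, and Muc5ac stand high at 15 min.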

How the data were processed

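RNA of cerebral vessels was sequenced in 12 libraries of 4 groups with 3 libraries each. The authors quantified transcripts with Salmon 1.2.1 (version from the submitters' processing notes, as is the build GRCm38.p6) and deposited estimated counts and TPM for each library. The 140948 transcripts were joined to genes for 139852 of them, summed to 54119 genes and rounded. A deposited gene table was not used, since its 12 columns match no sample label. Unjoined transcripts held 0.482% to 0.85% of fragments.

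Genes were filtered with filterByExpr (minimum count 10, minimum total 15, proportion 0.7) and fitted over all 12 libraries with TMM scaling in edgeR 4.0.16 (R 4.3.3), with group as the only term. The quasi-likelihood fit was tested against a change of at most 1.5-fold (glmTreat), with Benjamini-Hochberg adjustment over 19150 genes and a threshold of 0.05. SE is the standard error of the log2 fold change from the same fit. DESeq2 1.42.0 and limma 3.58.1 (on log2 of TPM + 1 and TPM + 0.1) served as alternatives, beside other scaling, no filter, a transcript length offset, a fit of 6 libraries, a replicate block, and leaving out each library. The steps were tested on simulated data for LPS 15 min against PBS. Of 50 genes each changed by 2-, 3-, 4-, and 8-fold, 70.0%, 100%, 98.0%, and 100% were recovered among 18340 genes. Of the unchanged genes 0 were called. These were simulated with no change at all and tested against a 1.5-fold limit, so this count does not measure false calls in the real data.

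Members and gene lists were chosen with earlier results of these data known, and 13 of the lists were put together after values had been seen. Genes named are called list members with large changes and up to 3 members not called, the called genes that changed most by log2 fold change (15 in each direction, from a mean count of 50 up), and those that changed most in CPM (10 in each direction). Others are said to have been chosen after their values were seen. Per the labels each library is a pool of 1 male and 1 female, and the 3 pools of a group are its replicates. Same-numbered libraries did not deviate together, so the numbers were not taken as pairs. Promoter sequences are from RefSeq (GRCm38.p6); the table holds under 80% of the tested genes, so shares of motifs over called genes are void and are not given. Intervals and floors cover counting error only.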

Additional observations from a re-analysis of the deposited data

Results flagged for a closer look

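Each value here is a log2 difference of LPS 30 min from LPS 15 min that passed the edgeR test against a 1.5-fold change at a Benjamini-Hochberg adjusted p below 0.05, in a gene with a large change at 15 min. The effects of both times against PBS use the same PBS libraries. Groups of 3 libraries were not tested for a library far from the others.

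Among the rises, the difference was 1.92 for Fos, 3.04 for Atf3, 0.80 for Jun, 1.62 for Junb, 1.9 for Nr4a1, and 2.06 for Zfp36. For the chemokines and E-selectin it was 3.67 (Cxcl1), 4.11 (Cxcl2), and 5.19 (Sele), and for the chaperones 2.35 (Hspa1a), 2.21 (Hspa1b), and 0.66 (Hspa8). Rhob differed by 0.81. All of these were higher at 30 min than at 15 min.

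Among the falls at 15 min, Eln differed by 0.67, Ptgds by 1.14, Slc6a12 by 1.15, Rbp4 by 1.36, and Serpind1 by 1.36, and each was higher at 30 min than at 15 min.

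Meg3 differed by -1.05 and Xist by -2.16. Muc5ac (-11.57), Gp2 (-10.64), Reg3g (-9.76), and Gm20388 (-3.71) were lower at 30 min; for the first 3 of these every 30 min library was at 0, so the fitted value depends on the prior count and is no measure of size.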

How the results depend on the processing

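Depth was similar between groups and limits chiefly genes under 1 CPM, such as Tnf, Selp, and the hormone genes. With 3 libraries a group, an exact permutation test of 1 value cannot go below 0.10. Without the fold limit edgeR called 7393 genes, 3905 higher and 3488 lower. DESeq2 called 573, of which 111 were lower, and 572 of its calls were shared with the reported ones. With limma 335 genes were called on log2(TPM + 1), 285 higher and 50 lower, and 384 on log2(TPM + 0.1), 322 higher and 62 lower. Leaving out 1 library gave 692 to 740 called genes, 555 to 590 higher and 137 to 150 lower, and for 30 min against 15 min 448 to 471 higher and 306 to 343 lower. With the replicate block 776 genes were called (616 higher, 160 lower), and 506 higher and 370 lower between the times; same-numbered libraries correlated by at most 0.068. Between the times, scaling by library size only gave 647 lower genes and DESeq2 216. The cause of these shifts was not tested, apart from the fold limit and the fewer libraries, which act by construction. Of 134 named genes that were called, 96 kept their call under every alternative, 38 lost it under at least 1, and 0 reversed. Among genes counted in list totals, Sgk1 and Slc7a5 each lost the call in 10 of 16 alternatives, and Cnn1 in 7.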

Other observations

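Further called genes lay outside every list and were chosen after their values were seen. Ch25h, which makes the oxysterol 25-hydroxycholesterol, had means of 7.52 CPM in PBS and 53.9 CPM at 15 min, a log2 fold change of 2.84 ± 0.06 (SE, n = 3 and 3; edgeR adjusted p = 2.27e-18). Ppp1r15a, a phosphatase subunit of the stress response, rose from 27.2 to 106 CPM (1.97 ± 0.06), and Cebpd, an acute phase transcription factor, from 31.5 to 95.9 CPM (1.61 ± 0.04). Lcn2, which encodes the iron-siderophore binding protein lipocalin-2, rose from 6.20 to 23.0 CPM (1.9 ± 0.09).

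Among the falls, Cirbp, a cold-inducible RNA-binding protein, went from a mean of 109.9 to 49.4 CPM (-1.15 ± 0.05). Clec14a, an endothelial lectin, went from 169 to 86.0 CPM (-0.97 ± 0.04).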
